A study of Mus musculus with 32 samples.

Results

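Mitochondria carry their own ribosomes, which translate the few membrane proteins of the respiratory chain that mitochondrial DNA encodes. The RNA of these ribosomes comes from mitochondrial DNA, whereas every one of their proteins is encoded in the nucleus, made in the cytosol and imported. The proteins are named Mrpl for the large subunit, which joins amino acids, and Mrps for the small subunit, which reads the messenger RNA. About the oocyte it is known that mitochondria are inherited through the egg and that the egg stores them in large numbers. The 78 genes described here are the entries of the deposited table whose symbol begins with Mrpl or Mrps followed by a digit, out of 13175 genes in all. Of these, 49 are named Mrpl and 29 are named Mrps. By their known place in the particle, 51 belong to the large subunit, including Mrps18a and Mrps30, and 26 to the small one. Mrps36 carries the name but is known as a subunit of the 2-oxoglutarate dehydrogenase complex. Counterparts of bacterial ribosomal proteins numbered 44, proteins particular to mitochondria 31, and 3 were not classified (Mrpl55, Mrps28 and Mrps36).

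The values come from 32 single oocytes of WT mice, with 1 SMART-Seq v4 library per oocyte. Preantral follicles were vitrified, that is cooled to a glass-like state for storage, or kept fresh, and both kinds were grown in culture (eIVFG). Oocytes at the germinal vesicle stage (GV), fully grown and arrested before the first meiotic division, were collected on day 8, 4 from fresh and 4 from vitrified follicles. Oocytes at metaphase II (MII), ovulated after hCG and awaiting fertilization, were collected on day 9, 12 from fresh and 12 from vitrified follicles. No group was taken from follicles grown in the animal, and all MII oocytes had been exposed to hCG whereas no GV oocyte had. The labels tie no oocyte to a mouse or culture, so p-values measure the spread between oocytes only.

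Depth per oocyte ran from 10357543 to 17687247 counts in GV and from 5300210 to 12206521 in MII oocytes. All 12 oocyte markers looked for were present in every group, with sums from 11575 to 26396 CPM (counts scaled to a common library size, the sizes adjusted by the trimmed mean of M values, TMM). Markers of expanded cumulus cells, 9 of 12 of which the table holds, summed to at most 1.93 CPM in any GV oocyte, with Ptx3, Areg, Ereg, Btc and Adamts1 at 0 in both GV groups. Among MII oocytes their median was 0.37 CPM in the fresh and 0.87 CPM in the vitrified group, but MII fresh replicate 11 reached 842 CPM, vitrified MII replicate 12 reached 158 CPM, and 4 others, 2 of each treatment, had 2.69 to 15.2 CPM. Markers of granulosa cells, 11 of 13 in the table, summed to between 152 and 348 CPM in GV and between 1518 and 5779 CPM in MII oocytes. Most of the MII sum was Serpine2 (medians of 2467 and 2561 CPM after fresh and vitrified culture, against 140.3 and 138 CPM in GV). Without it, the medians of the other 10 were 89.98 and 97.9 CPM in GV and 99.8 and 122 CPM in MII oocytes. Their highest sums were 130 and 139 CPM in fresh and vitrified GV, and 2122 and 338 CPM in fresh and vitrified MII oocytes. Theca and stroma markers, 5 of 8 in the table, had group medians from 2.78 to 4.14 CPM. Their highest sums were 5.44 and 8.82 CPM in fresh and vitrified GV, and 25.2 and 73.8 CPM in fresh and vitrified MII oocytes. None of 4 blood markers was in the table. Stage coincides with library-number series (GV libraries are numbered apart from those of MII), and GV values are whole numbers whereas part of the MII values are not. Stage, series and this difference in the values cannot be told apart.

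Transcripts of the mitochondrial ribosome took up a far smaller share of the library in MII than in GV oocytes. The 78 genes made up 1.45 ± 0.103% of all counts in fresh GV oocytes (SD, n = 4) and 1.39 ± 0.0551% in vitrified GV oocytes (SD, n = 4). In MII oocytes they made up 0.218 ± 0.0457% after fresh and 0.192 ± 0.0162% after vitrified culture (SD, n = 12 each). The GV oocytes lay between 1.31% and 1.55% and the MII oocytes between 0.162% and 0.304%, so the stages did not overlap. As summed CPM, the 4 fresh GV oocytes had 10314, 9652, 14833 and 11656, and the 4 vitrified ones 14279, 10533, 10235 and 10067. Fresh MII oocytes ranged from 1586 to 3083 CPM with a median of 2253, and vitrified ones from 1680 to 3198 with a median of 2152. These values are shares of a library, and the kit primes on poly(A) tails, so fewer transcripts, shorter tails and a smaller share of a changed RNA pool cannot be told apart. Fresh GV replicate 3 and vitrified GV replicate 1 stood above the other GV oocytes in summed CPM, at 1.55% and 1.43% of counts, and had TMM factors of 1.05 and 1.00 against up to 1.40 in the others; the part of the scaling was not tested.

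**Figure D1:**
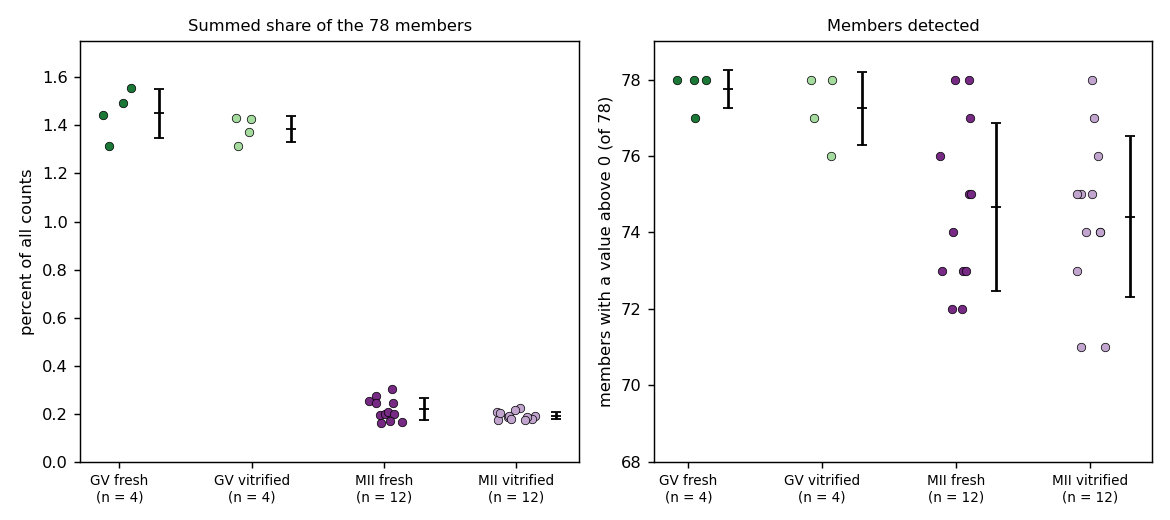
Left, the percent of all counts taken by the 78 genes in each oocyte; right, how many of the 78 had a value above 0. Points are oocytes and bars give the mean and SD of each group; the GV oocytes lie between 1.31% and 1.55% and the MII oocytes between 0.162% and 0.304%. The right axis starts at 68.

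Most of the 78 genes were still detected in MII oocytes. With a deposited value of exactly 0 counted as 0, 2 of the 78 were at 0 in at least 1 GV oocyte and 17 in at least 1 MII oocyte, but no gene was at 0 in every oocyte of a group. Mrpl52 and Mrps10 were each at 0 in 8 of the 12 fresh MII oocytes, and the values of Mrps34 were at 0 or rounded to 0 in 8 of 12 as well. A count of 0 limits a gene only as far as the depth allows, and MII libraries were the shallower ones. The deposited table holds no gene with a summed MII value under 10. A gene at 0 in all MII oocytes could therefore not be among the 78, and outright loss cannot be judged here.

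To see which proteins' transcripts were most abundant, levels were divided by the length of each gene's exons (CPM per kilobase). In fresh GV oocytes the highest were Mrpl34 (457 ± 107), Mrpl22 (339 ± 43.6), Mrpl14 (333 ± 48.6), Mrps18c (306 ± 90.8) and Mrps33 (283 ± 115; SD, n = 4 each, CPM per kilobase). Mrpl22 lines the tunnel through which the new chain leaves the ribosome, and Mrpl14 sits where both subunits meet. The means of these neighbours lay within 1 or 2 SD of each other, so their order is not firm. The median gene stood at 40.6 CPM per kilobase, and the top 5 held 28.7% of the summed level. In fresh MII oocytes the median had dropped to 4.30 CPM per kilobase and the top 5 held 39.2%. Mrpl18, a large subunit protein with a bacterial counterpart, headed the MII list at 213 ± 61.3 in fresh and 210.1 ± 50.2 CPM per kilobase in vitrified oocytes (SD, n = 12 each). Next came Mrpl24 at 61.2 ± 15.5 and 69.6 ± 26.97 CPM per kilobase, so that 1 gene stood well apart from the rest. Of the exon bases of Mrpl18, 10.1% overlap those of Tcp1 on the other strand. Mrps18c moved from 4th to 62nd place and Mrpl3 from 71st to 18th among the 78 in fresh oocytes. Across the 78 genes the levels of fresh and vitrified oocytes kept the same order (Spearman's rho 0.987 in GV and 0.981 in MII), and those of GV and MII much less so (0.460 in fresh, 0.372 in vitrified); these rho values are descriptions over genes.

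The first comparison asks how these transcripts differ between the stages in fresh follicles. All 78 genes were tested; 62 fell, 3 rose and 13 passed in neither direction (edgeR's quasi-likelihood test, Benjamini-Hochberg adjusted p under 0.05 over 11470 genes). Over all genes tested 29.8% were called lower and 22.8% higher. The median log2 fold change of the 78 was −3.21, beside −0.23 over all genes. The oocytes of both stages did not overlap for 55 genes that were lower (18.5% of all genes tested) and for 2 that were higher (12.5%), Mrpl3 and Mrpl44. The large subunit had 42 of 51 genes falling and 3 rising, with a median of −3.21. The small subunit had 19 of 26 falling and none rising, with a median of −2.98. Of the counterparts of bacterial proteins 33 of 44 fell and 1 rose (median −2.98), and of those particular to mitochondria 26 of 31 fell and 2 rose (median −3.21).

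Between stages in vitrified follicles the picture was alike in size. There, 63 of the 78 fell, 5 rose and 10 passed in neither direction, with a median of −3.28 beside −0.34 over all genes. Over all genes tested 33.7% were called lower and 23.3% higher. Oocytes did not overlap for 57 genes that were lower (20.7% of all genes) and 3 that were higher (13.2%), Mrpl3, Mrpl44 and Mrpl19. The same 61 genes fell in both comparisons, and Mrpl3, Mrpl44 and Mrpl45 rose in both. Mrpl49 fell in fresh follicles only by the threshold, Mrpl9 and Mrps17 fell and Mrpl19 and Mrps9 rose in vitrified ones only by the threshold, and 9 genes passed in neither (Mrpl10, Mrpl18, Mrpl24, Mrpl36, Mrps2, Mrps23, Mrps26, Mrps34 and Mrps5). Across the 78 genes the fold changes of both comparisons, which share no oocyte but come from 1 fit, had Pearson's r of 0.966 and Spearman's rho of 0.971, as a description over genes; over all 11470 genes they were 0.903 and 0.910. They lay within 0.5 of each other for 49 genes and within 1 for 70, and Mrpl19 differed most.

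**Figure D2:**
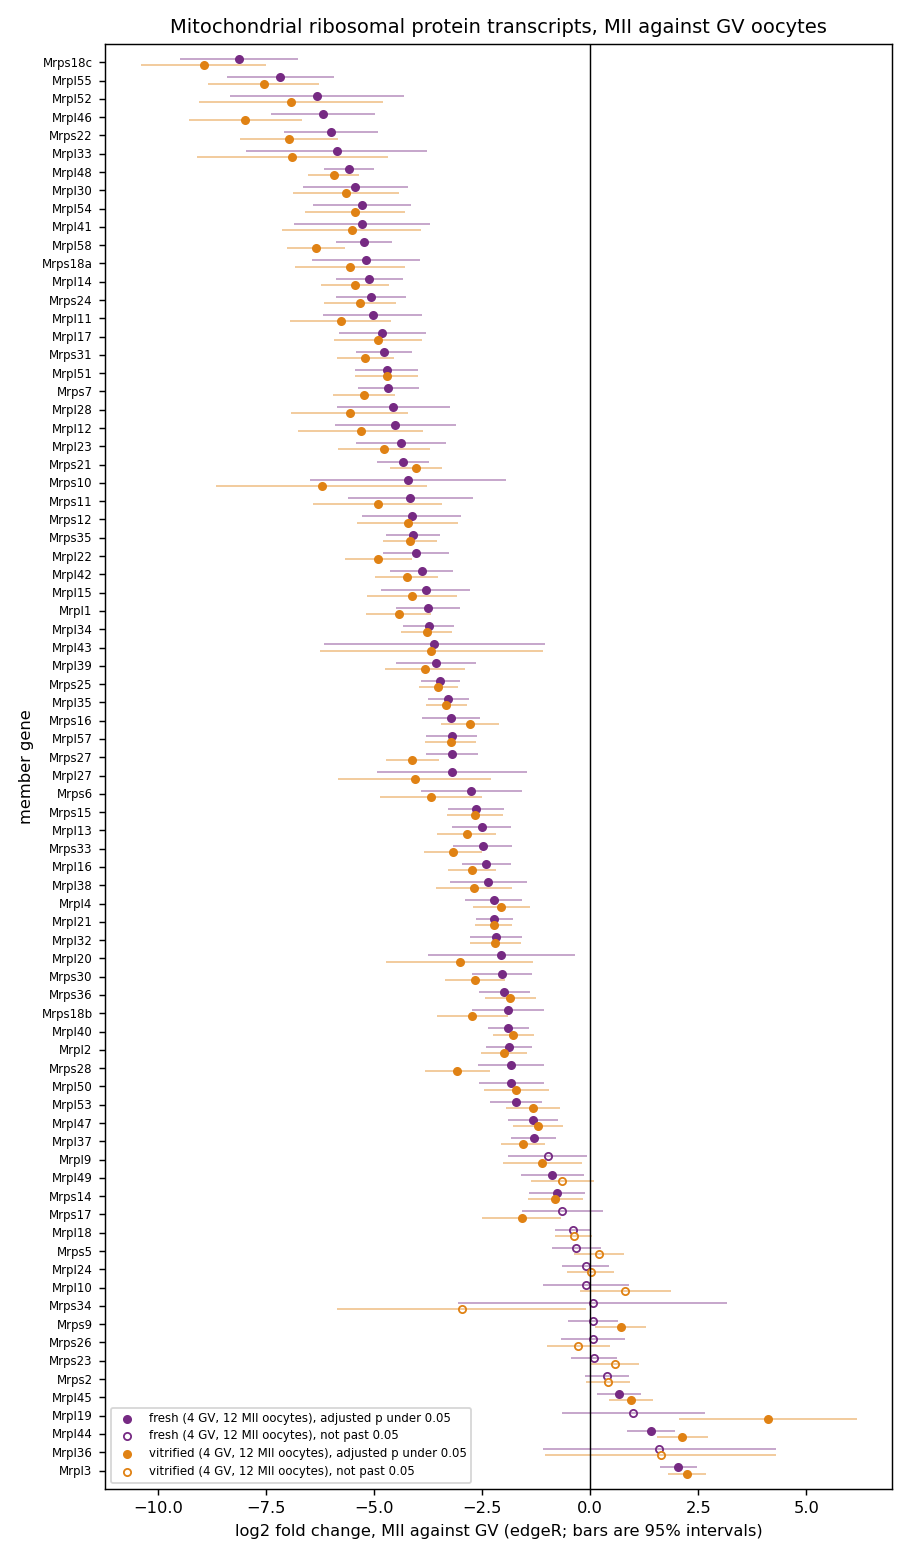
Log2 fold change of each of the 78 genes, MII against GV, in fresh (purple) and vitrified (orange) follicles, ordered by the fresh value; bars are 95% intervals, filled points have an adjusted p under 0.05. Falls reach −8.14 in fresh and −8.95 in vitrified follicles, both for Mrps18c, while Mrpl3 rises by 2.04 and 2.24.

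**Figure D3:**
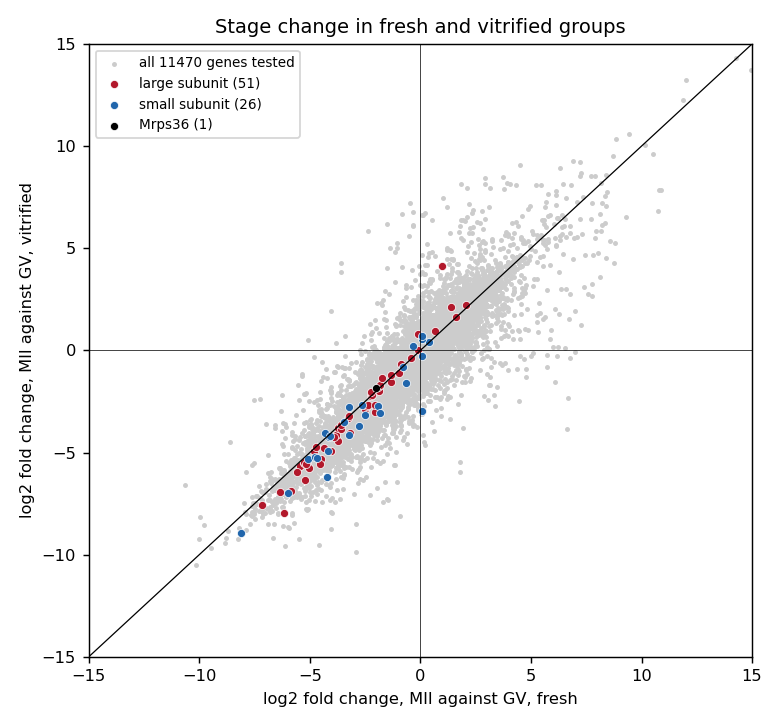
Log2 fold change, MII against GV, in fresh (x axis) and vitrified follicles (y axis) for all genes tested (grey) and the 78 genes by subunit (colours); the diagonal marks equal values. Most of the 78 lie at the lower left, with medians of −3.21 and −3.28.

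Among genes that fell, Mrps18c had the largest change in both comparisons. It encodes 1 of 3 versions of the protein S18 that mammals keep, of which Mrps18c and Mrps18b sit in the small subunit and Mrps18a in the large one. Its levels were 287, 287, 476 and 269 CPM in fresh GV oocytes and 289, 251, 319 and 226 CPM in vitrified ones. In fresh MII oocytes it ranged from 0 to 9.22 CPM with a median of 0.38, and in vitrified ones from 0 to 1.52 CPM with a median of 0.461. Every MII oocyte was thus far under every GV oocyte. The log2 fold change was −8.14 ± 0.68 (SE, adjusted p = 3.17e-12 by edgeR) in fresh and −8.95 ± 0.72 (adjusted p = 9.84e-13) in vitrified follicles. Mrps18a fell by 5.19 ± 0.62 and 5.57 ± 0.63 on the log2 scale, and Mrps18b by 1.90 ± 0.41 and 2.74 ± 0.40. Of the exon bases of Mrps18c, 23.2% overlap those of Gm43511 on the same strand, so reads there cannot be assigned with certainty.

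The promoters of the genes with the largest fall and the largest rise called in both comparisons are shown because they share a motif although they moved in opposite directions. Each runs from 250 bases before to 50 bases after the gene's start, 5′ to 3′ on the gene's strand, from RefSeq on GRCm38.p6, for Mrps18c at chr5:100798509-100798808 on the plus strand and for Mrpl3 at chr9:105053018-105053317 on the plus strand. Capitals mark the letters CCGGAAGT, the core bound by ETS-family factors, or their reverse complement.
Mrps18c: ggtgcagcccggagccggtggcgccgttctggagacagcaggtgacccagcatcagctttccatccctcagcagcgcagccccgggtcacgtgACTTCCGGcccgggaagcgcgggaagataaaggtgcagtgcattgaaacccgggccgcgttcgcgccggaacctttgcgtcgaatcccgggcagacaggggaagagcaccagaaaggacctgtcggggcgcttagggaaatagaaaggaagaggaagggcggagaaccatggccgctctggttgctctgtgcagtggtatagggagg
Mrpl3: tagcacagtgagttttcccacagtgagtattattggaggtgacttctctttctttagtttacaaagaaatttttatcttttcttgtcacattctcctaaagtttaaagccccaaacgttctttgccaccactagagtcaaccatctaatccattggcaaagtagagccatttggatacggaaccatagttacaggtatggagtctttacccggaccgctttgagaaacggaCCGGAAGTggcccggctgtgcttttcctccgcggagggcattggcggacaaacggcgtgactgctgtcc
A RefSeq promoter was at hand for 69 of the 78 genes, and 12 of these (17.4%) held CCGGAAGT on either strand, beside 8.57% of 10582 genes of the table. The core GCGCATGCG of the factor NRF1, a known regulator of nuclear genes for mitochondria, was found in 7 of the 69 (10.1%), beside 3.87% of genes. Both motifs were searched on both strands, and no gene of the 69 held both. Of the 12 genes with CCGGAAGT 9 fell and Mrpl3 rose in fresh follicles (median −4.16), of the 7 with GCGCATGCG 5 fell (median −2.19), and of the 50 with neither 41 fell and 2 rose (median −2.98). Of all genes tested there, 29.8% were called lower and 22.8% higher. Calls over all genes were not split by promoter motif. A match of letters is a description of the sequence and not evidence of binding.

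The next largest falls belonged to other genes of both subunits. Mrpl55, of the large subunit, had 257, 195, 296 and 274 CPM in fresh GV oocytes and 265, 215, 207 and 217 CPM in vitrified ones. In MII oocytes it ranged from 0 to 9.06 CPM (median 1.11) after fresh and from 0 to 3.30 CPM (median 0.91) after vitrified culture. The stages did not overlap, and the log2 fold changes were −7.18 ± 0.61 and −7.57 ± 0.63 (SE, fresh and vitrified). Mrps22, of the small subunit, is a gene in which human variants are known to cause ovarian dysgenesis. It had 199.9, 139.9, 461 and 128 CPM in fresh and 420.1, 291, 144 and 149 CPM in vitrified GV oocytes. Its MII range was 0.141 to 13.2 CPM (median 2.69) in the fresh and 0.199 to 4.13 CPM (median 2.07) in the vitrified group, again without overlap. The log2 fold changes of Mrps22 were −6.01 ± 0.54 and −6.97 ± 0.56. Mrpl52 (−6.33 ± 0.99 and −6.93 ± 1.05), Mrpl46 (−6.18 ± 0.59 and −7.99 ± 0.65) and Mrpl33 (−5.87 ± 1.04 and −6.90 ± 1.09) completed the 6 largest falls. MII fresh replicate 11 held 59 counts of Mrpl52, where no other fresh MII oocyte held more than 10, and 133 counts of Mrpl33, where the next held 77. Without it the fresh values were −8.52 for Mrpl52, −7.28 for Mrpl33, −9.40 for Mrps18c and −7.81 for Mrpl55, so the sizes and order of these falls rest in part on that oocyte. Without fresh GV replicate 3 Mrps22 had −5.40. Without vitrified MII replicate 12 the vitrified values were −7.71 for Mrpl52 and −7.53 for Mrpl33. The highest edgeR adjusted p among these 6 genes was 1.15e-05, for Mrpl33 in fresh follicles. Mrpl46 and Mrps11 share 173 exon bases on opposite strands, and the counting is not stated to use strand.

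Genes named for what their proteins are known to do were looked at next. Mrpl12 and Mrpl11 belong to the stalk that recruits translation factors. Mrpl12 had 76.3 to 167 CPM in fresh GV oocytes and a median of 1.93 CPM in fresh MII oocytes, a log2 fold change of −4.51 ± 0.69 (−5.32 ± 0.71 in vitrified follicles). Mrpl11 changed by −5.04 ± 0.56 and −5.78 ± 0.58. Without MII fresh replicate 11 the fresh values were −5.52 for Mrpl12, −5.70 for Mrpl11 and −6.07 for Mrps18a. Mrps12, which lies at the decoding centre, changed by −4.14 ± 0.57 and −4.23 ± 0.57. Mrpl58, also known as ICT1, releases chains from stalled ribosomes. It had 222, 174, 250.1 and 252 CPM in fresh and 402, 230.2, 271 and 241 CPM in vitrified GV oocytes. Its MII range was 3.25 to 14.7 CPM (median 4.44) and 1.79 to 6.69 CPM (median 3.07), so that the stages stood apart, at −5.24 ± 0.32 and −6.35 ± 0.33. Mrps36, outside the ribosome, fell by 1.99 ± 0.29 and 1.86 ± 0.29 on the log2 scale. Of the genes most abundant per kilobase in fresh GV oocytes, Mrpl34 fell by 3.74 ± 0.29, Mrpl22 by 4.04 ± 0.37, Mrpl14 by 5.12 ± 0.38 and Mrps33 by 2.49 ± 0.33 on the log2 scale in fresh follicles. Mrps30 fell by 2.04 ± 0.34.

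**Figure D4:**
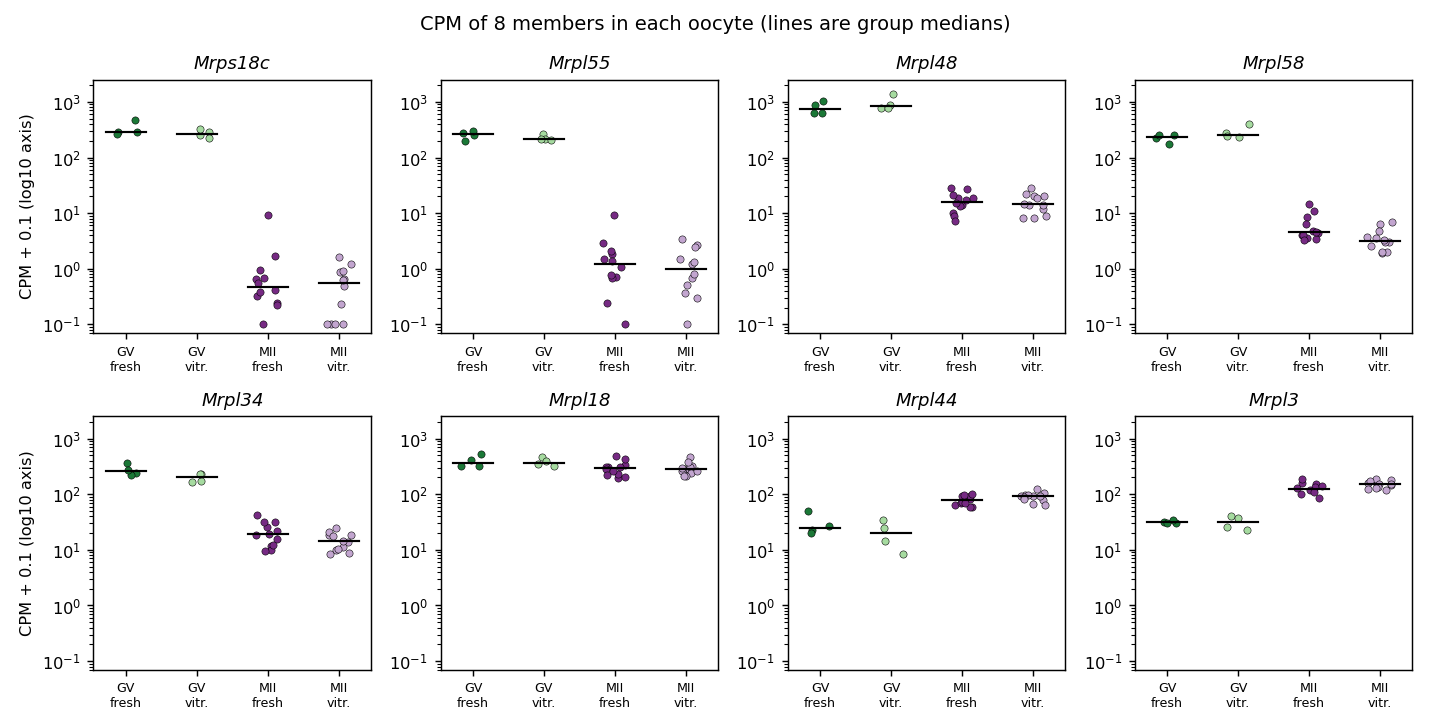
CPM plus 0.1 on a log10 axis for 8 of the genes in each oocyte (points), with group medians (lines). Mrps18c, Mrpl55, Mrpl48, Mrpl58 and Mrpl34 are lower in every MII than in every GV oocyte, Mrpl18 overlaps between stages, and Mrpl44 and Mrpl3 are higher in every MII oocyte.

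A small set went the other way. Mrpl3, a protein with a bacterial counterpart near the site where amino acids are joined, had 31.8, 30.3, 29.8 and 34.2 CPM in fresh and 26.03, 40.96, 22.3 and 37.8 CPM in vitrified GV oocytes. It ranged from 87.1 to 186 CPM (median 125) in fresh and from 117 to 188 CPM (median 151) in vitrified MII oocytes. All 24 MII oocytes were above all 8 GV oocytes, and the log2 fold changes were 2.04 ± 0.21 and 2.24 ± 0.21 (SE; adjusted p = 4.5e-10 and 6.08e-11 by edgeR). Mrpl44, a protein particular to mitochondria with a fold like that of RNase III, had 23.01, 19.8, 49.1 and 27.05 CPM in fresh and 8.32, 25.01, 14.4 and 33.9 CPM in vitrified GV oocytes. Its MII range was 57.96 to 101 CPM (median 77.8) and 63.6 to 123 CPM (median 93.3), without overlap. It rose by 1.41 ± 0.28 and 2.14 ± 0.29 on the log2 scale. Mrpl3 and Mrpl44 kept their calls without any 1 oocyte and under each scaling run.

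Mrpl45, which anchors the ribosome at the inner membrane near the tunnel exit, was less certain. It had 38.1, 40.2, 39.3 and 81.4 CPM in fresh and 73.2, 49.9, 41.9 and 49.5 CPM in vitrified GV oocytes, against 46.3 to 111 CPM (median 82.8) and 65.9 to 150 CPM (median 105) in MII oocytes. The stages overlapped, and it rose by 0.66 ± 0.25 (adjusted p = 0.0235 by edgeR) and 0.95 ± 0.25 (adjusted p = 0.00167). The fresh call was lost with DESeq2's size factors (0.51, adjusted p = 0.0949), with DESeq2 itself (0.51, 0.0771), with library totals alone (0.26, 0.316) and without fresh GV replicate 1, 2 or 3 (0.55 to 0.59, adjusted p up to 0.0994), and the vitrified call with library totals (0.47, 0.0612) and in libraries numbered 20 and over (0.63, 0.0822). Mrpl19 was called in vitrified follicles alone, at 4.11 ± 1.01 (adjusted p = 7.62e-04). It was scarce everywhere: the deposited values were 26, 67, 6 and 16 counts in fresh and 1, 5, 0 and 5 counts in vitrified GV oocytes, and its MII medians were 2.26 and 2.37 CPM. The fitted fold of so few counts depends on the fit, and 1962 of its 5450 exon bases overlap Gcfc2 on the other strand. Mrps9, of the small subunit, passed narrowly in vitrified follicles (0.70 ± 0.29, adjusted p = 0.0392), and 0.06 ± 0.28 was measured in fresh ones. Its call was lost with DESeq2's size factors (0.61, adjusted p = 0.0803) with library totals (0.18, 0.622) and without vitrified GV replicate 1 or 3 or vitrified MII replicate 1, 3, 5, 6, 7 or 12 (0.52 to 0.68, adjusted p from 0.0514 to 0.161). It was also lost with DESeq2 (adjusted p = 0.0583), the replicate block (0.0599), only the 16 vitrified-group oocytes (0.0590), libraries numbered 20 and over (0.242), and without oocytes high in cumulus markers (0.125) or both high GV oocytes (0.119).

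Mrpl18 and Mrpl24 were among the most abundant genes of MII oocytes, and their levels overlapped between stages. Mrpl18 had 322, 317, 526 and 408 CPM in fresh and 470.4, 395, 345 and 327 CPM in vitrified GV oocytes. It ranged from 198 to 479 CPM (median 294) in fresh and from 211 to 459 CPM (median 283) in vitrified MII oocytes. The stages overlapped, with log2 fold changes of −0.40 (95% interval −0.83 to 0.02) and −0.39 (−0.81 to 0.04). In vitrified follicles Mrpl18 passed as lower with library totals (−0.88, adjusted p = 7.7e-06 by edgeR), without vitrified MII replicate 6 (−0.48, 0.0431) and in libraries numbered 20 and over (−0.61, 0.0486). Mrpl24 had −0.10 (−0.64 to 0.44) and 0.01 (−0.54 to 0.56), and its vitrified direction flipped with the scaling, to a call for a fall with library totals (−0.47, adjusted p = 0.0454). The value of Mrpl24 was not a whole number in each of the 24 MII oocytes. Of its exon bases, 26.3% overlap those of Rrnad1 on the other strand. The part of both in its stage values was not tested. Mrps26, Mrps23 and Mrps5, of the small subunit, were not called either. They had 0.07, 0.08 and −0.32 in fresh and −0.28, 0.58 and 0.21 in vitrified follicles, and the direction of Mrps23 and Mrps26 in fresh and of Mrps5 in vitrified follicles flipped with the scaling. In vitrified follicles Mrps26 passed as lower with library totals (−0.83, adjusted p = 0.0402), and Mrps23 passed as higher with the stricter filter, with limma-voom, in libraries numbered under 20 and without both high GV oocytes. Mrps34 could hardly be measured: it was at 0.461 to 3.50 CPM in GV, 77.8% of its exon bases overlap other genes, and its fresh value was 0.06 (−3.06 to 3.17). MII fresh replicate 11 was the highest MII oocyte at 19.5 CPM, and without it the value was −1.996; without fresh GV replicate 1 or 3 or MII fresh replicate 1 it lay between −0.19 and −0.074. It passed as lower with limma-voom (−3.15, adjusted p = 0.00233) and without the oocytes high in cumulus markers (−4.47, 0.00128).

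**Figure D5:**
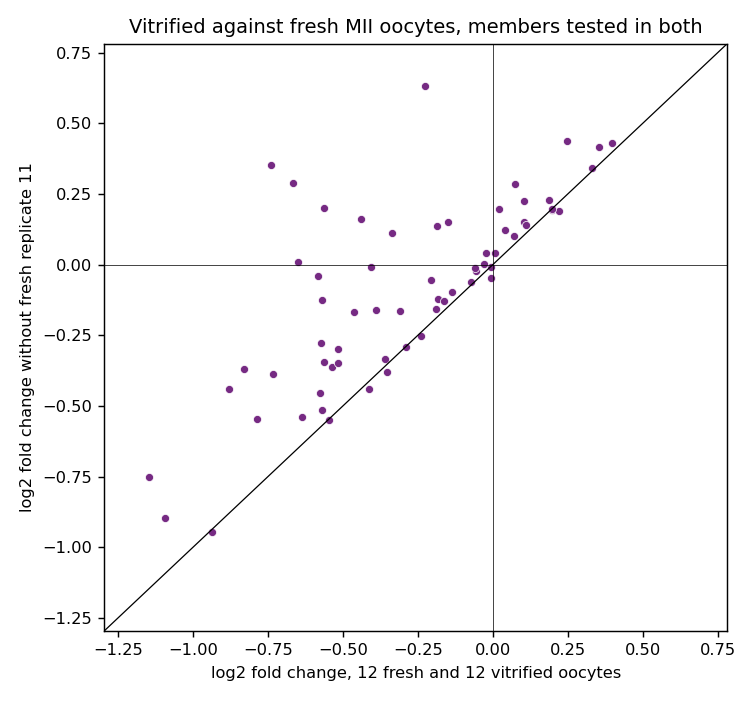
Log2 fold change of the 64 genes tested, vitrified against fresh MII oocytes, with all oocytes (x axis) and without fresh replicate 11 (y axis); the diagonal marks equal values. Values below 0 number 48 with all oocytes and 37 without it, and the median moves from −0.27 to −0.04. Of all genes tested, 54.7% and 51.1% were below 0.

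The message tail was examined as well, because cytoplasmic polyadenylation elements, short T-rich signals near the end of a message, are known to lengthen the poly(A) tail of some stored transcripts during maturation. TTTTAT or TTTTAAT was searched on the transcript's strand in the last 100 bases of 1 GENCODE transcript per gene; both motifs begin TTTTA and differ after it. Sites are shown for the gene that rose (Mrpl44), a gene that fell little (Mrps14) and a pair that fell strongly (Mrpl14 and Mrpl11), each as 30 bases, 5′ to 3′, with the motif in capitals.
Mrpl44: cagctagatgtaTTTTATtccctccagctt
Mrps14: tcattcccaggtTTTTATgttctatgcatc
Mrpl14: gcagaataaatgTTTTAATgtatgttttct
Mrpl11: tacaattaaaacTTTTATtacgtgtataat
A site was found in 12 of the 78 genes (15.4%), beside 19.8% of 11352 genes of the table. In fresh follicles 9 of the 12 fell and Mrpl44 rose, with a median of −1.78, while 53 of the 66 without a site fell and 2 rose, with a median of −3.22. In vitrified follicles the medians were −1.65 and −3.60. Over all genes tested the fresh medians were 0.50 with and −0.43 without a site. With and without a site together, 29.8% of all genes were called lower and 22.8% higher in fresh follicles. Mrps14 changed by −0.78 and −0.81, whereas Mrpl14 changed by −5.12 and −5.45 and Mrpl11 by −5.04 and −5.78. The sites shown differ in place: they begin 85 (Mrpl44), 92 (Mrps14), 23 (Mrpl14) and 19 bases (Mrpl11) from the transcript's end. The part of this position was not tested. Genes with a site ran from −5.12 to 1.41 in fresh follicles and those without one from −8.14 to 2.04. The transcripts of the 78 were short, with a median of 1302 bases beside 3040 over all genes. Length and the fresh fold change had Spearman's rho of 0.316 over the 78 and 0.216 over all genes. Among the 78, median length was 1922 bases with a site and 1251.5 bases without one. The parts of length and site in the smaller fall were not tested.

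Part of the MII values are not whole numbers. Of the 47 genes whose MII values were all whole 41 fell and 1 rose (Mrpl45) in fresh follicles, with a median of −4.14. Of the 31 genes with values that were not whole in at least 1 MII oocyte 21 fell and 2 rose, Mrpl3 and Mrpl44 (median −1.90). Mrpl3 was not whole in 18 and Mrpl44 in 2 of the 24 MII oocytes. The share of such genes was 39.7% among the 78 and 38.3% among all genes. Whole or not, 29.8% of all genes tested were called lower and 22.8% higher in fresh follicles. Mrpl48, not whole in all 24 MII oocytes, was the most abundant of the 78 by CPM in fresh GV oocytes, at 631, 644, 870.0 and 1021 CPM, and lay between 7.23 and 27.7 CPM in fresh MII oocytes. Of the 45 genes without exon overlap 39 fell (median −3.29), and of the 33 with overlap 23 fell (median −2.52).

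Other genes of mitochondrial translation were counted in the same fit. Among 5 mitoribosomal proteins with other names, Chchd1, Aurkaip1 and Gadd45gip1 fell by 4.16, 4.91 and 5.24 on the log2 scale in fresh follicles, and Dap3, the GTP-binding protein of the small subunit, fell by 0.82 ± 0.21 (0.71 ± 0.21 in vitrified). Ptcd3, a small subunit protein at the entry of the messenger RNA, rose from 25.1 ± 10.9 to 142 ± 40.7 CPM in fresh oocytes (SD, n = 4 and 12), a log2 fold change of 2.50 ± 0.30, and 2.20 ± 0.30 in vitrified ones. Of 23 assembly and rRNA modification factors tested 9 fell and 5 rose in fresh and 10 fell and 5 rose in vitrified follicles, beside 29.8% lower and 22.8% higher over all genes in fresh and 33.7% and 23.3% in vitrified follicles, so the share that rose is near that of all genes. Mettl15 rose by 2.49 ± 0.36 and 2.04 ± 0.35, while Mterf4 fell by 4.14 ± 0.23 and 3.92 ± 0.23. Of 19 translation factors 10 fell and 3 rose in each comparison, against the same shares of all genes. Those that rose were the elongation factors Tsfm (2.08 ± 0.31 and 2.05 ± 0.31) and Gfm1 (1.79 ± 0.19 and 2.07 ± 0.19) and Gfm2 (1.01 ± 0.32 and 1.37 ± 0.32), which recycles ribosomes. Tufm, the partner of Tsfm, fell by 3.91 ± 0.91 and 3.76 ± 0.91. Among 5 genes of mitochondrial transcription, Polrmt, the RNA polymerase, fell by 4.70 ± 0.78 and 3.81 ± 0.77. Tfb2m, its initiation factor, rose by 2.18 ± 0.30 and 2.63 ± 0.31. Tfam fell by 2.20 ± 0.82 and 2.22 ± 0.82, and Tefm was called in neither comparison. Mterf2 was called higher in fresh follicles only (4.79 ± 1.71), from 0.047 CPM in fresh GV oocytes, and had −1.32 ± 1.16 in vitrified ones. Of 81 cytosolic ribosomal proteins 76 and 79 fell and none rose, with medians of −4.64 and −5.20.

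Did vitrification alter these transcripts in GV oocytes? No gene of the 78 was called: by edgeR 0 of 76 tested passed, and without adjustment 0 had a p under 0.05. The count was 0 with DESeq2 and with limma-voom too. Over all genes 0.0% were called and 1.66% had an unadjusted p under 0.05. The median log2 fold change of the 76 was −0.07 beside 0.00 over all genes, and for 39 of them the 95% interval lay within −1 and 1, so for the remaining genes a 2-fold change in either direction is not excluded. Mrps21, a small subunit protein with a bacterial counterpart, had the smallest p. It measured 237, 178, 249.5 and 160.3 CPM in fresh and 132, 146, 151 and 114 CPM in vitrified oocytes, without overlap (1.36% of all genes were lower without overlap). Its log2 fold change was −0.59 ± 0.28 (SE, unadjusted p = 0.054, adjusted p = 1 by edgeR). Mrps30 was higher without overlap (0.692% of all genes), at 29.3, 23.5, 30.5 and 26.7 CPM in fresh and 33.9, 38.3, 44.3 and 35.4 CPM in vitrified oocytes, with 0.48 ± 0.32. Mrpl57 (−0.60 ± 0.29), Mrpl34 (−0.45 ± 0.28) and Mrps12 (−0.44 ± 0.31) followed in order of p.

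In MII oocytes, 0 of the 64 genes tested were called between vitrified and fresh follicles, also with DESeq2 and limma-voom. Of all 8428 genes tested DESeq2 called 36 and limma-voom 0. By edgeR 6 of the 64 had an unadjusted p under 0.05, 5 lower and 1 higher. Over all genes edgeR called 0.0%, and 12.5% had an unadjusted p under 0.05 (6.56% lower, 5.96% higher). The median was −0.27 beside −0.05 over all genes, 48 of the 64 were below 0, and the 95% interval lay within −1 and 1 for 34. Mrps28, a small subunit protein, ranged from 4.28 to 61.9 CPM (median 24.8) in fresh and from 6.89 to 21.3 CPM (median 13.7) in vitrified oocytes. The ranges overlapped, and the log2 fold change was −0.94 ± 0.32 (unadjusted p = 0.00688, adjusted p = 0.257 by edgeR). Mrpl45 had 0.40 ± 0.16, Mrpl57 −0.64 ± 0.26, Mrpl58 −0.78 ± 0.33 and Mrps6 −1.09 ± 0.53, with adjusted p from 0.326 to 0.396.

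The shift towards lower values was smaller without 1 oocyte and differed between library-number ranges. With all 24 MII oocytes kept, the median also varied with the method. It was −0.10 with limma-voom, the replicate block or the stricter filter, −0.20 with DESeq2 and −0.42 with library totals. MII fresh replicate 11 had the highest CPM of all 24 MII oocytes for 43 of the 78 genes (55.1%), beside 17.8% of all genes. In Mrpl12 it had 31.2 CPM where the highest other MII oocyte had 6.80, and in Mrps18a 24.7 CPM where the highest other had 7.62. The same oocyte had the highest cumulus sum (842 CPM), granulosa sum (5779 CPM) and summed cytosolic ribosomal proteins (5233 CPM, at most 1916 in the other fresh MII oocytes); their part in the result was not tested. Without that oocyte 37 of the 64 were below 0 (57.8%, beside 51.1% of all genes), with a median of −0.04. Mrps28 was −0.95 without it, −0.69 with limma-voom, −0.68 without oocytes high in cumulus markers and −0.76 in libraries numbered 20 and over. In libraries numbered under 20 Mrps28 was −1.03, and with DESeq2 it was −0.94. Without the 6 MII oocytes whose cumulus sum was over 3 times the MII median, the median was −0.11. Among libraries numbered under 20 (7 oocytes per treatment) the median was 0.05, and among those numbered 20 and over (5 per treatment) it was −0.65. MII fresh replicate 11 is 1 of the 5 fresh oocytes numbered 20 and over, so both subsets overlap. The part of the library series without that oocyte was not tested.

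Whether the change from GV to MII differed between treatments was tested as an interaction over all 32 oocytes. None of the 78 passed, and 3 had an unadjusted p under 0.05, 2 lower and 1 higher, beside 0.0% and 4.07% of all genes (2.12% lower, 1.95% higher). DESeq2 and limma-voom called 0 of the 78, and 8 and 0 of all 11470 genes. The largest of the 78 was Mrpl19 (3.11 ± 1.14, unadjusted p = 0.0098, adjusted p = 0.946 by edgeR), which rests on the low counts of vitrified GV oocytes given above. Mrpl58 had −1.12 ± 0.49, Mrps28 −1.24 ± 0.58, Mrpl44 0.73 ± 0.36 and Mrps27, a small subunit protein that binds RNA, −0.91 ± 0.46. The median over the 78 was −0.24 beside −0.13 over all genes, and 0.04 without MII fresh replicate 11. It was 0.095 with MII libraries numbered under 20 and −0.63 with those of 20 and over. In the latter 71 of 77 were below 0 (92.2%, beside 58.7% of all genes). Libraries of 20 and over include MII fresh replicate 11. The 95% interval lay within −1 and 1 for 15 of the 78, so differences of 2-fold in the stage change are not excluded for most.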

How the data were processed

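SMART-Seq v4 served for library preparation, per the labels' protocols. The submitters' processing notes list HISAT2, featureCounts and mm10. The unit of the deposited table was read from its values: GV values are whole and were taken as counts, and 11.7% to 19.7% of MII values per oocyte are not whole, as in expected or estimated counts as deposited by the authors. No label or header states how. A count test had been planned, and values were rounded to whole numbers for it. After 27 exact repeats were removed from 13202 entries, 13175 genes remained. The smallest summed MII value of any gene was 10.

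Genes were kept with filterByExpr (minimum 10 counts, 15 in total) and tested with edgeR 4.0.16 in R 4.3.3 (TMM scaling, quasi-likelihood F test, two-sided, Benjamini-Hochberg adjustment over all genes tested, 0.05). Treatments were compared within each stage, and stages and the interaction in 1 fit of 32 oocytes with 4 group means. Errors of log2 fold changes are SE and errors of CPM are SD. DESeq2 1.42.0 and limma 3.58.1 were alternatives. The script was tested on simulated data holding 200 changed genes. Exon lengths, overlaps and transcripts come from GENCODE M21 on GRCm38, which matched all 78 genes and 13059 of 13175, and promoters from RefSeq. The rule for named genes took, per stage comparison, the 6 largest falls and rises called and the 4 values nearest 0, per other comparison the 5 smallest p, the 5 highest levels per kilobase and 10 genes by name. Mrpl48 and genes of the related lists were named outside that rule, after their values were seen. The genes, lists and rules were chosen with earlier results of these data known.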

Additional observations from a re-analysis of the deposited data

Results flagged for a closer look

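Among 35 items in both GV groups of 4 oocytes, 5 held an oocyte set far apart from the other 3, where chance gives about 1 in 20 of the 70 groups looked at. The summed CPM of the 78 genes was 14279 in vitrified GV replicate 1 and between 10067 and 10533 in the others of its group. Mrps33 had 1301 CPM in the same oocyte and 312 to 377 CPM in the others. Mrps18c had 476 CPM in fresh GV replicate 3, against 269 to 287 CPM in the others. Mrpl45 had 81.4 CPM in fresh GV replicate 4, against 38.1 to 40.2 CPM. Mrpl14 was low in fresh GV replicate 1, at 248 CPM against 335 to 347 CPM. Both oocytes with the highest summed CPM, fresh GV replicate 3 and vitrified GV replicate 1, had low TMM factors; the part of the scaling in these values was not tested.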

How the results depend on the processing

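Under the other scalings and filters, DESeq2, limma-voom, truncated values and subsets of oocytes, counts of the 78 called stayed within 1.5 times those reported. They were 61 to 66 in fresh and 64 to 69 in vitrified follicles when 1 oocyte was left out. In both treatment comparisons and the interaction they were 0. Among genes whose MII values are whole, 42 and 43 were called, with medians of −4.14 and −4.43; only these 47 genes enter, and the other 31 had medians of −1.90 and −1.99. With library totals alone the vitrified stage median was −3.76. Scaling also moved all genes: their stage medians were −0.23, −0.37 and −0.61 in fresh and −0.34, −0.45 and −0.81 in vitrified follicles with TMM, DESeq2's size factors and library totals, and the genes called higher and lower were 2615 and 3413, 2373 and 3698, and 1992 and 4142 in fresh, and 2678 and 3861, 2536 and 4037, and 1945 and 4703 in vitrified. The 78 stayed 2.94 to 2.98 below all genes in the median in fresh and 2.93 to 2.95 below in vitrified follicles.

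Some directions turned, and the cause was not tested; 3 of the turned values passed as falls (Mrps34 with limma-voom and without cumulus-high oocytes, Mrpl24 with library totals). In fresh follicles and in the order DESeq2's size factors, library totals and DESeq2, Mrps23 had −0.064, −0.32 and −0.064, Mrps26 −0.070, −0.37 and −0.070 and Mrps9 −0.080, −0.33 and −0.080. Mrps23 also turned in libraries numbered under 20 (−0.065), Mrps26 in those of 20 and over (−0.19) and without both high GV oocytes (−0.070, chosen after seeing the data), and Mrps9 without cumulus-high oocytes (−0.032). Mrps34 had −0.28 with library totals, −3.15 with limma-voom, −1.35 in libraries under 20, −4.47 without cumulus-high oocytes and −0.18 without both high GV oocytes. In vitrified follicles Mrpl24 had −0.070, −0.47 and −0.070 under the 3 alternatives first named, −0.36 in libraries of 20 and over and −0.0091 without cumulus-high oocytes, and Mrps5 had −0.31 with library totals. Mrpl45 between treatments in MII was −0.045 in libraries of 20 and over. Without 1 oocyte, Mrps23 ranged from −0.0021 to 0.17, Mrps26 from −0.12 to 0.43, Mrps34 from −1.996 to 0.47 and Mrps9 from −0.030 to 0.16 (fresh), and Mrpl24 from −0.24 to 0.28 (vitrified).

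Fresh and vitrified oocytes of the same replicate number were compared. Their deviations correlated from −0.38 to 0.19 in GV and −0.33 to 0.28 in MII. In GV, 1 of 4 fresh and 1 of 4 vitrified oocytes correlated best with their own replicate number. In MII, these were 0 of 12 fresh and 3 of 12 vitrified oocytes. Replicate numbers are not library numbers, and oocytes were not matched by library number. A shared mouse or culture cannot be judged from these correlations. With the replicate block 0 genes were called in GV, in MII and for the interaction, 64 in fresh and 65 in vitrified stage comparisons. Under the block the vitrified Mrps9 call was lost (0.81, adjusted p = 0.0599 by edgeR), and Mrps23 (−0.040) and Mrps34 (−2.35) turned in fresh and Mrps26 (0.25) in vitrified follicles.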
